A study of Rattus norvegicus with 6 samples.

Results

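Oxidative phosphorylation genes were examined in the lungs of rats that breathed silica dust. The genes were those whose probe sets were annotated to a single gene with a symbol starting with Nduf, Uqcr, Atp5, Cox4, Cox5, Cox6, Cox7 or Cox8, or to Sdha, Sdhb, Sdhc, Sdhd or Cycs. The rule found 86 genes, measured by 96 probe sets, among 14217 named genes on the array. They comprised 40 genes of complex I, 4 of complex II, 7 of complex III, 19 of complex IV and 16 of complex V. Cytochrome c (Cycs) had no probe set of its own, because its probe sets also list other genes. Of the further genes listed for each complex, no single-gene probe set was found for 6 of complex I, 2 of complex III, 2 of complex IV (Cox7a2 and Cox8c) and 3 of complex V. A gene with several probe sets was represented by the one with the highest mean signal over all arrays.

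Each of 6 Lewis rats, which belong to an inbred strain, contributed lung RNA to a single array. In the silica group 3 rats inhaled silica for 6 weeks, on 5 days a week and for 6 hours each day, at a concentration of 6.2 mg/m3. The 3 control rats inhaled filtered air. The labels name no further agent and no engineered allele in either group, and they do not say how long after exposure the lungs were taken. Values are linear signals, scaled by the same rule on every array. A difference is the mean of log2(signal + 16) in the silica group minus that in the control group, a scale that understates changes of dim genes. Errors after ± are standard errors of that difference, with 3 animals per group.

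Oxidative phosphorylation is the process by which the inner mitochondrial membrane makes most of the ATP of a resting cell. Complexes I and II feed electrons from NADH and succinate to ubiquinone, complex III passes them to cytochrome c, and complex IV gives them to oxygen. The protons moved on the way drive complex V, the ATP synthase. In the lung, type 2 alveolar cells rely on this process for surfactant production, and several subunits of complex IV exist in a common form and in forms restricted to muscle, lung or testis.

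No oxidative phosphorylation gene passed the test for a difference between silica and control lungs, and the differences were small. Of the 86 genes, 38 had a higher and 48 a lower mean in the silica group, with a median log2 difference of -0.0094. The range ran from -0.46 for Cox8b, a muscle isoform of complex IV, to 0.38 for the pseudogene Cox6c-ps1. On the whole array the median over the 14217 genes was 0.02. The limma test with Benjamini-Hochberg adjustment over all probe sets called 0 of the 86 genes at an adjusted p under 0.05, and the lowest adjusted p was 0.171. It called 1.67% of all genes, 1.55% as higher and 0.12% as lower, so a count of 0 among 86 genes is close to that background. In bulk tissue, fewer cells of a type and less RNA per cell cannot be told apart.

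Looser criteria picked out few of these genes. At an unadjusted limma p under 0.05, 3 genes were higher and 0 lower in the silica group, against 19.9% of all genes, 12.6% higher and 7.24% lower. The 3 genes were Atp5mpl, Ndufaf7 and Cox6c-ps1. The silica and control signals did not overlap for 18 of the 86 genes, or 20.9%, with 9 higher and 9 lower. For all genes this share was 31.4%, with 18.7% higher and 12.7% lower.

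The differences among the 86 genes were narrower than those across the array. The median absolute log2 difference was 0.09, against 0.18 over all genes, and the median standard error was 0.10 against 0.13. By the brightest probe set, none of the 86 genes differed by more than 0.5 (1.41-fold), while 12.3% of all genes did. Among the 10 further probe sets of the 86 genes, 2 differed by more than 0.5, those of Ndufaf7 and Atp5me. A difference over 0.25 (1.19-fold) was seen for 6 of the 86 genes, or 6.98%, against 36% of all genes. Small differences were not particular to these genes. For the mitochondrial ribosomal protein genes described below, the median absolute log2 difference was 0.08, with 8.89% over 0.25. Citric acid cycle and pyruvate entry genes had 0.07 and 15%. The other lists of mitochondrial genes had medians from 0.08 to 0.15, with 17.9% to 36.4% over 0.25. Most of the 86 genes are bright, so as a partial control the same counts were taken for the genes represented among the brighter 50% of probe sets. There, 82 of the genes were measured, 0 differed by more than 0.5 against 8.05% of all such genes, and 4 differed by more than 0.25 against 29.5%. In these brighter genes 2 had an unadjusted p under 0.05 against a background of 22.1%, and 17 had groups that did not overlap, or 20.7%, against 38.2%. That cut removed dim genes but did not match brightness. Array medians lay between 7.38 and 7.42 on the log2 scale. Mean signals passed 1000 for 68 of the 86 genes, not counting tissue isoforms and the pseudogene. How many comparison genes were that bright was not counted, and the part of brightness in the gap was not tested. The plot of the share of genes by size of difference shows the gap to all genes at each size up to 0.5.

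**Figure D1:**
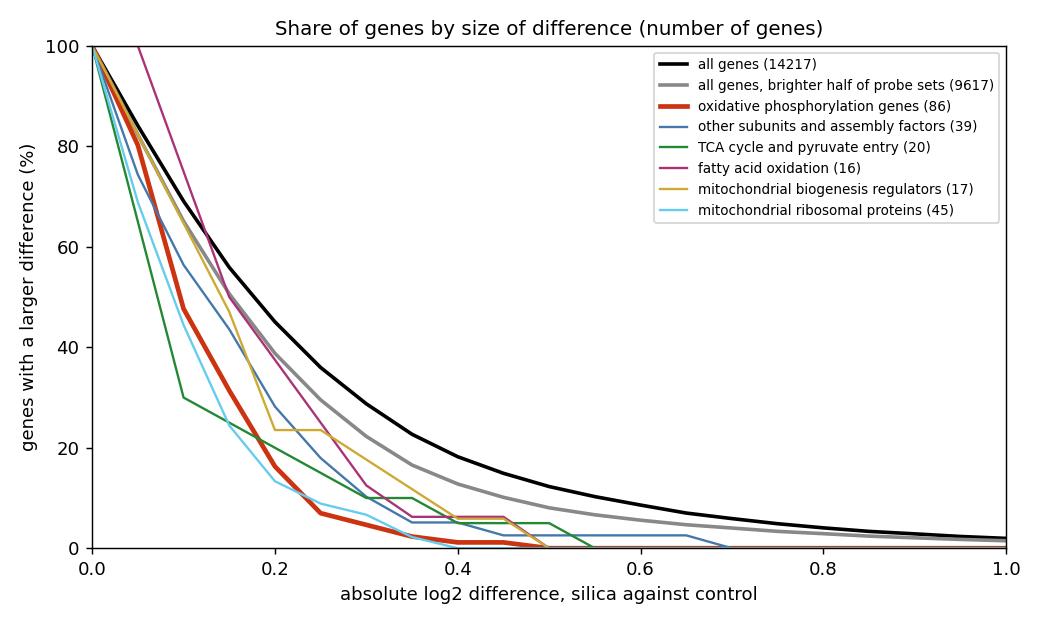
Share of genes (%, vertical axis) whose absolute log2 difference between silica and control exceeded the value on the horizontal axis, for the 86 oxidative phosphorylation genes and for the background lists named in the key. At 0.25 the oxidative phosphorylation genes stood at 6.98%, mitochondrial ribosomal protein genes at 8.89% and all genes at 35.978%. Beyond 0.5 no oxidative phosphorylation gene remained, each gene being read by its brightest probe set.

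The precision of 3 against 3 arrays limits what could be called. For 72 of the 86 genes the 95% interval of the log2 difference lay wholly between -0.5 and 0.5, and for 84 of them between -1 and 1. With the threshold that the whole array set, a gene of the group needed a median log2 difference of 0.67 (1.59-fold) to pass, with a range from 0.58 to 4.25, the highest for Cox6a2, which had the largest standard error. A change smaller than the limit of its own gene could not be called in the main analysis, and the limits were not computed for other fits. Analyses that called more genes overall still called none of the 86. Leaving the dimmer 50% of probe sets out called 11.4% of all genes, an intensity trend with robust spread 8.57%, an intensity trend 7.57% and a pseudocount of 64 called 4.35%, with 0 of the oxidative phosphorylation genes in each. The lowest adjusted p among them was 0.0504, for Atp5mpl with the intensity trend.

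**Figure D2:**
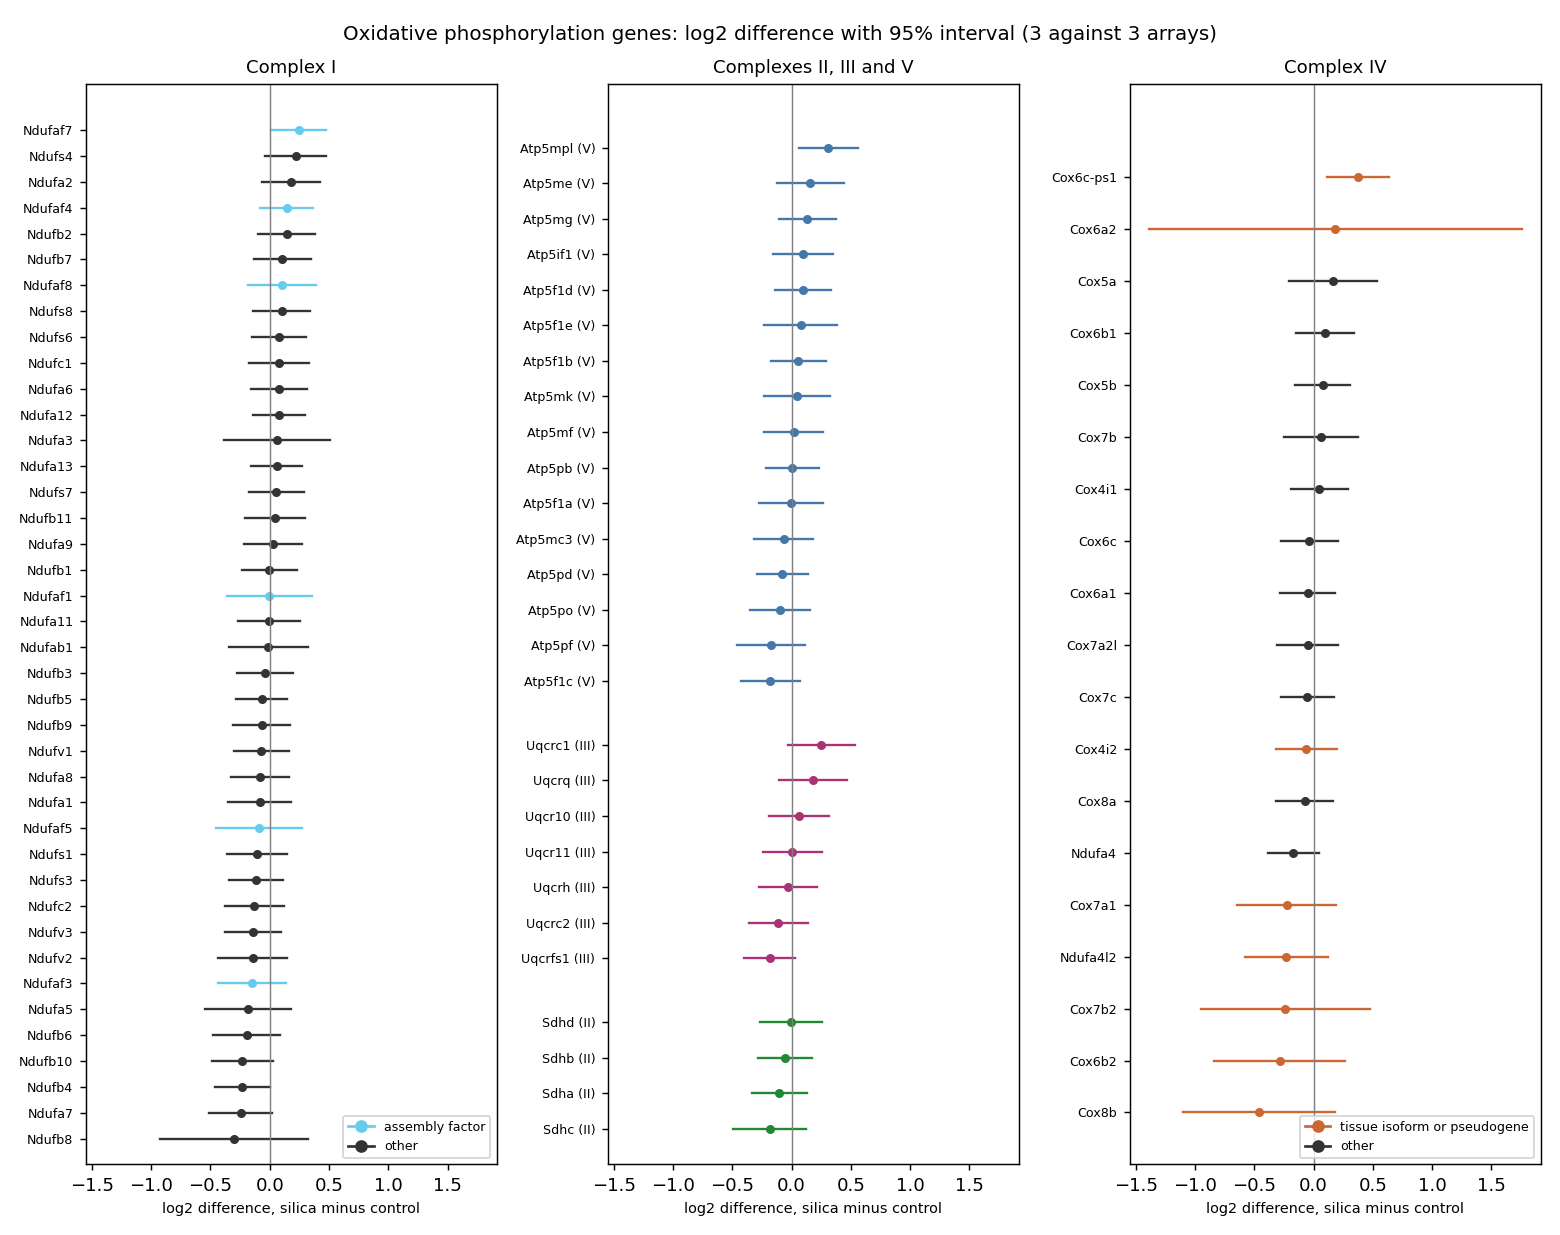
Log2 difference, silica minus control, for each of the 86 genes, by complex. Dots are estimates and bars are 95% intervals from limma over 3 against 3 arrays, and colours mark assembly factors, tissue isoforms and the pseudogene, and complexes. The estimates run from -0.46 to 0.38, and the widest intervals belong to Cox7b2, which is dim, and Cox6a2.

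The array means of each complex overlapped between the groups. Relative to the control mean, the mean log2 signal of all 86 genes was 0.05, -0.06 and 0.01 on the control arrays and -0.0033, -0.0019 and -0.05 on the silica arrays. The mean over the 14217 genes did not overlap, with 0.01, -0.0036 and -0.0094 on the control arrays and 0.06, 0.05 and 0.04 on the silica arrays. Means of the 86 genes relative to all genes were not compared. The 86 genes together took between 1.37% and 1.43% of the total signal of each array. By complex, the median log2 difference was -0.0093 for complex I, -0.08 for complex II, 0.0056 for complex III, -0.05 for complex IV and 0.03 for complex V. No complex had a called gene. These medians were close to 0 and moved with single arrays: that of complex V was -0.0021 without control replicate 2 and 0.06 without silica replicate 3, and that of complex IV was -0.01 without silica replicate 3. That of complex I was -0.07 without silica replicate 2, and that of complex III was -0.06 without silica replicate 1.

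**Figure D3:**
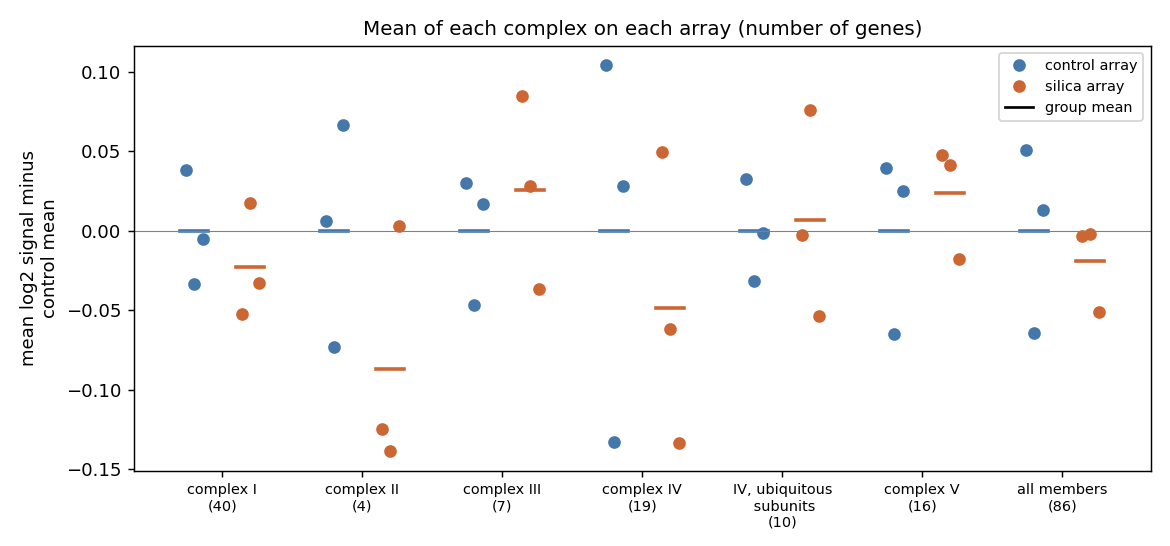
Mean log2 signal of the genes of each complex on each array, minus the mean of the control arrays (vertical axis), with control and silica arrays in separate colours and lines at the group means. The lowest silica mean is -0.09, of complex II, and in each complex the silica points overlap the control points.

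Complex I, the NADH dehydrogenase, was represented by 6 catalytic core subunits, 28 supernumerary subunits and 6 assembly factors. The core subunits carry the flavin and the iron-sulphur clusters, and their median log2 difference was -0.09, with 4 of 6 below 0. Ndufs1, the largest core subunit, gave 1472, 1333 and 1579.8 on the control arrays and 1338, 1317 and 1406 on the silica arrays. The groups overlapped for Ndufs1 (log2 difference -0.11, adjusted p = 0.649). Ndufs3, a core subunit of the peripheral arm, gave 1523, 1387 and 1417 on the control arrays and 1379.5, 1324 and 1287 on the silica arrays. Every silica value of Ndufs3 was below every control value, with a log2 difference of -0.12 ± 0.09 and an adjusted p of 0.582. Ndufv2, which holds an iron-sulphur cluster next to the flavin subunit, gave 4130.5, 3644 and 4101 on the control arrays and 3169, 3820.0 and 3777 on the silica arrays, and its groups overlapped (log2 difference -0.14, adjusted p = 0.588). The flavin subunit Ndufv1 had a log2 difference of -0.07, and the iron-sulphur subunits Ndufs7 and Ndufs8 had 0.06 and 0.10.

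The 28 supernumerary subunits, which surround the core and carry no redox centre, had a median log2 difference of -0.0093 and lay between -0.30 and 0.22. The groups did not overlap for 8 of them, 4 higher and 4 lower, against 18.7% higher and 12.7% lower over all genes. Ndufa7 gave 4285, 4429.7 and 5027 on the control arrays and 4015, 3947 and 3614 on the silica arrays. Silica values of Ndufa7 all lay below control values (log2 difference -0.24 ± 0.11, adjusted p = 0.322), while its further probe set had a log2 difference of 0.14. The membrane-arm subunits Ndufb4 and Ndufb10, chosen after their values were seen, had the same arrangement. Ndufb4 gave 7651, 7444 and 7532 on the control arrays and 6226, 6157 and 6915 on the silica arrays (log2 difference -0.23 ± 0.10, adjusted p = 0.295). Ndufb10 gave 2612, 2576 and 2379.9 on the control arrays and 1962, 2236 and 2256 on the silica arrays (log2 difference -0.23, adjusted p = 0.332). Ndufb6 was also lower on every silica array, with a log2 difference of -0.19. Ndufa2, Ndufb2 and Ndufa12 went the other way, at 0.18, 0.14 and 0.08, with every silica value above every control value. In that direction also stood Ndufs4, a subunit whose loss causes Leigh syndrome. It gave 538, 480.0 and 548 on the control arrays and 617, 641 and 572 on the silica arrays, with all silica values above the control values and a log2 difference of 0.22 ± 0.11 (adjusted p = 0.347). The lowest estimate of complex I belonged to Ndufb8, at -0.30 ± 0.26 with a 95% interval of -0.93 to 0.33. Its signals were 248, 209.7 and 121 on the control arrays and 145, 129 and 171 on the silica arrays, with all silica values inside the control range.

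Complex I assembly factors help build the enzyme without being part of it. Among the 6, 3 estimates were above and 3 below 0, with a median of 0.05. Ndufaf7, a methyltransferase needed for complex I assembly, gave 330.4, 368 and 338 on the control arrays and 396, 417 and 422 on the silica arrays. The groups did not overlap, and the log2 difference of 0.24 ± 0.10 had a 95% interval of 0.01 to 0.48 and an adjusted p of 0.273. A further Ndufaf7 probe set was also higher on every silica array, with 150.0, 139 and 126 on the control arrays and 204, 220.1 and 213 on the silica arrays. That probe set had a log2 difference of 0.57 ± 0.10 and an adjusted p of 0.0770, the lowest among the 96 probe sets and still short of the threshold. With the mean of all probe sets per gene the adjusted p of Ndufaf7 was 0.0518.

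Complex II, succinate dehydrogenase, is also an enzyme of the citric acid cycle. All 4 of its subunits had estimates below 0, none past the test. The flavoprotein Sdha gave 3433, 3472 and 3567 on the control arrays and 3221, 3081 and 3461 on the silica arrays (log2 difference -0.10 ± 0.10, adjusted p = 0.629). The iron-sulphur subunit Sdhb gave 3150.0, 3019 and 3213 on the control arrays and 2891, 3124 and 3005 on the silica arrays (log2 difference -0.06, adjusted p = 0.794). The groups overlapped for both. The membrane anchor Sdhc gave 2761, 2570.0 and 3141 on the control arrays and 2445, 2262 and 2738 on the silica arrays (log2 difference -0.18 ± 0.13, adjusted p = 0.506), and the anchor Sdhd gave 3789, 3365 and 3717 on the control arrays and 3451, 3468 and 3934 on the silica arrays. The groups overlapped for Sdhc and Sdhd. The log2 difference of Sdhd was -0.003 (95% interval -0.27 to 0.26), and its further probe set gave -0.20, adjusted p = 0.416. All 4 intervals of complex II lay between -0.5 and 0.5.

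Complex III, the cytochrome bc1 complex, had estimates on both sides of 0. The core protein gene Uqcrc1 gave 2984, 2778 and 2556 on the control arrays and 3638, 3221 and 3058 on the silica arrays. Its silica values were all above its control values (log2 difference 0.25 ± 0.12, 95% interval -0.03 to 0.53, adjusted p = 0.335). The other core protein gene, Uqcrc2, gave 3872, 3680.2 and 4098 on the control arrays and 3560.0, 3385 and 3845 on the silica arrays, and its groups overlapped (log2 difference -0.11, adjusted p = 0.626). A further Uqcrc2 probe set read lower on every silica array, with a log2 difference of -0.44, adjusted p = 0.232. The Rieske iron-sulphur protein gene Uqcrfs1, which carries electrons onward to cytochrome c1, gave 3761, 3643 and 3721 on the control arrays and 3205, 3221 and 3363 on the silica arrays. All its silica values were below its control values, with a log2 difference of -0.18 ± 0.09 (95% interval -0.40 to 0.03, adjusted p = 0.349). Uqcrq, a small membrane subunit, overlapped between the groups at 0.18 ± 0.12 (adjusted p = 0.478). The small subunits Uqcrh, Uqcr10 and Uqcr11 had log2 differences of -0.03, 0.06 and 0.0056.

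Complex IV, cytochrome c oxidase, was represented by 10 subunits made in all tissues, 7 tissue isoforms, the supercomplex factor Cox7a2l and the pseudogene Cox6c-ps1. Its catalytic subunits are encoded in mitochondrial DNA and are outside the gene set. The ubiquitous subunits had a median log2 difference of 0.0051, with 5 above and 5 below 0. Cox4i1, the common form of the regulatory subunit that binds ATP, gave 13144, 12782 and 12069 on the control arrays and 12764, 13982 and 12525 on the silica arrays (log2 difference 0.05, adjusted p = 0.846). Cox5a had 0.16 ± 0.15 and Cox5b 0.08 ± 0.10, with adjusted p of 0.628 and 0.715. Cox6a1, Cox6b1 and Cox8a, common forms that have tissue-restricted counterparts, had log2 differences of -0.05, 0.10 and -0.07. Ndufa4, named for complex I but known as a subunit of complex IV, gave 5159, 4930.4 and 5104 on the control arrays and 4360.5, 4567 and 4584 on the silica arrays. It was the only ubiquitous subunit whose groups did not overlap (log2 difference -0.17 ± 0.09, 95% interval -0.39 to 0.05, adjusted p = 0.389). Cox6c-ps1 is annotated as a pseudogene, and whether its probe set also picks up the parent gene was not tested. It gave 72.9, 83.7 and 77.9 on the control arrays and 110.2, 114 and 95.6 on the silica arrays, the highest estimate of the set, with all silica values above the control values (log2 difference 0.38 ± 0.11, adjusted p = 0.171).

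The 7 tissue isoforms of complex IV had the lowest median of any class, -0.23, with 6 of 7 below 0. None passed the test, none had groups that did not overlap, and only 1 had a 95% interval between -0.5 and 0.5. Cox4i2, the isoform known from lung and from vessel-associated cells, gave 223, 222 and 227 on the control arrays and 226, 227 and 192 on the silica arrays. Silica replicate 3 was the lowest array and the groups overlapped (log2 difference -0.06, adjusted p = 0.808). Ndufa4l2, a hypoxia-induced relative of Ndufa4, gave 334, 449.7 and 421 on the control arrays and 377, 322 and 319 on the silica arrays. The groups overlapped (log2 difference -0.23 ± 0.15, adjusted p = 0.473). Pericyte markers had a summed signal of 2763 to 2981 in the control and 2287 to 2415 in the silica group. Of the 7 markers 0 were called, and 5 had estimates below and 2 above 0. Every silica value was below every control value for 3 of them, against 12.7% of all genes. The part of pericytes in the isoform values was not tested. Cox6b2, a testis isoform, was dim and overlapped between the groups (log2 difference -0.29, adjusted p = 0.567).

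**Figure D4:**
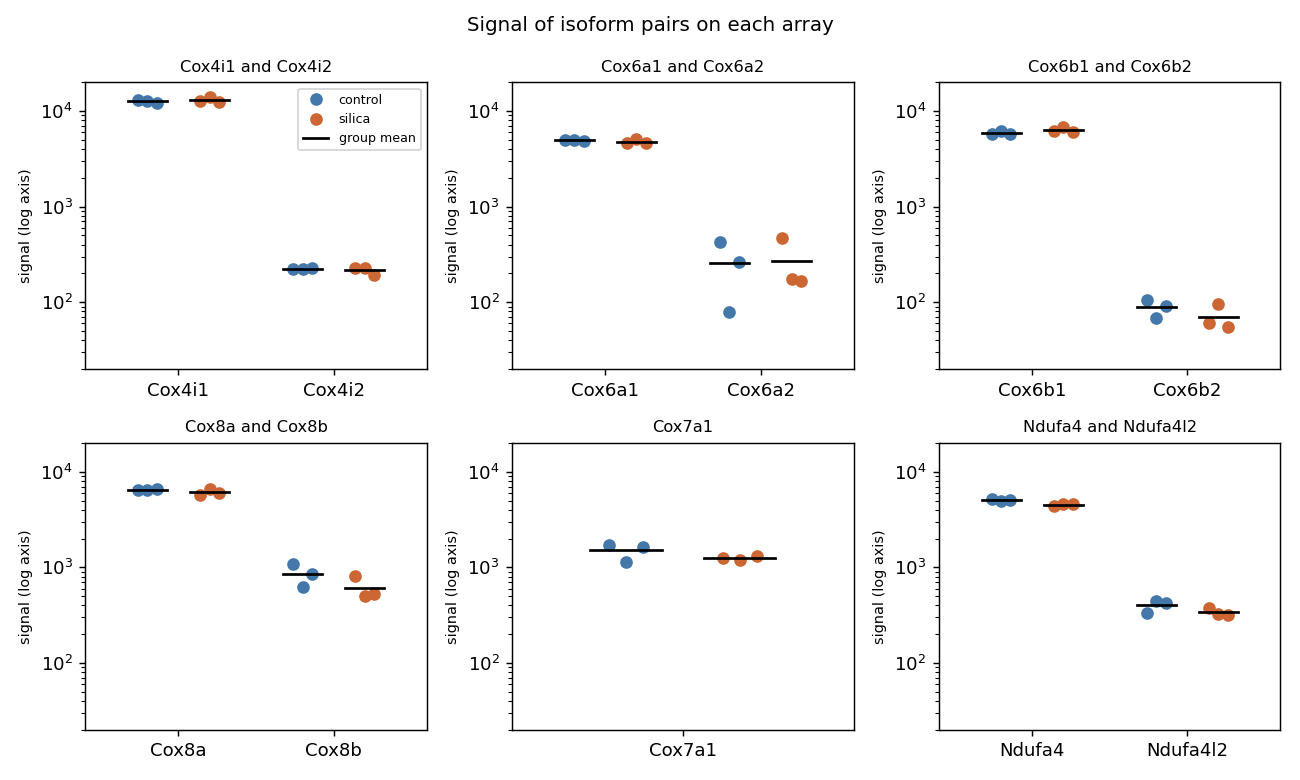
Signal on each array (log axis) for common and tissue-restricted forms of complex IV subunits, with control and silica arrays in separate colours and lines at the group means. Levels of different probe sets are not comparable, so each gene is to be read against itself. The common forms vary little between arrays, whereas Cox6a2 ranged from 78.8 to 467 and Cox8b from 499.9 to 1073.

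The heart and muscle isoforms Cox6a2 and Cox8b varied widely between animals within each group. Cox6a2 gave 423, 78.8 and 262 on the control arrays and 467, 175 and 168 on the silica arrays, a 5.93-fold range across arrays, with a log2 difference of 0.18 ± 0.65 and a 95% interval of -1.39 to 1.76. Cox8b gave 1073, 618 and 853 on the control arrays and 804, 499.9 and 530.4 on the silica arrays (log2 difference -0.46 ± 0.26, 95% interval -1.10 to 0.18, adjusted p = 0.426). Cox7a1 gave 1729, 1151 and 1626 on the control arrays and 1266, 1194 and 1325 on the silica arrays (log2 difference -0.23 ± 0.17, adjusted p = 0.550). In comparison, the 68 genes with a mean signal over 1000 that are neither isoforms nor the pseudogene ranged 1.08-fold to 1.54-fold across the 6 arrays, with a median of 1.18-fold. Cox7a1 ranged 1.50-fold, inside that span. Cox8b ranged 2.15-fold, close to the 2.04-fold of Ndufb8, the widest of the 9 such genes with a mean signal from 100 to 1000, whose median was 1.34-fold. The sign of the Cox6a2 difference rested on single animals, since it was 0.66 when control replicate 1 was left out, -0.44 when control replicate 2 was, and -0.27 when silica replicate 1 was.

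Cardiac muscle markers varied across the same arrays. The summed signal of the 11 measured markers of 12 listed was 4977, 754 and 4304 on the control arrays and 4167, 1294 and 2170.1 on the silica arrays, with 0 markers called and 1 of them, Nppa, at a mean signal under 50. The 3 arrays with the lowest sums, control replicate 2 and silica replicates 2 and 3, were also the 3 with the lowest Cox6a2 and the lowest Cox8b. For Cox7a1 the lowest 3 were control replicate 2 and silica replicates 1 and 2. Skeletal muscle markers summed to 3357 to 6107 in the control and 2979 to 10132.5 in the silica group, highest on silica replicate 1. Of 4 brown adipocyte markers, Ucp1, Dio2 and Elovl3 had mean signals under 50. The part of muscle tissue in these isoform signals was not tested.

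**Figure D5:**
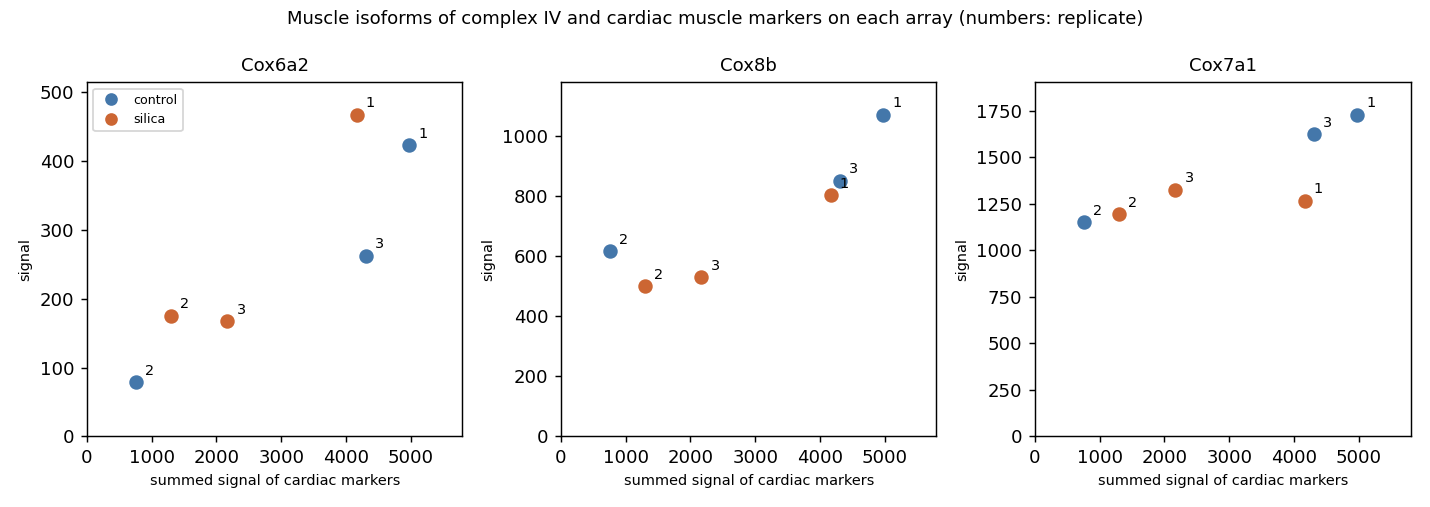
Signal of Cox6a2, Cox8b and Cox7a1 (vertical axes) against the summed signal of 11 cardiac muscle markers (horizontal axes) on each array, numbered by replicate and coloured by group. Control replicate 2 has the lowest marker sum, 754, and the lowest Cox6a2 signal, 78.8, and both groups spread along the horizontal axis.

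Complex V, the ATP synthase, had 5 subunits of the catalytic F1 head, 10 subunits of the membrane part and stalk, and an inhibitor. The F1 subunits had a median log2 difference of 0.06. Atp5f1b, the subunit that holds the catalytic sites, gave 8130.4, 7612 and 7404 on the control arrays and 8033, 8284 and 7736 on the silica arrays (log2 difference 0.06, adjusted p = 0.803). Atp5f1a, its partner in the head, had a log2 difference of -0.0058, adjusted p = 0.987. Atp5f1c, the rotating central shaft, gave 5719.6, 5124 and 5996 on the control arrays and 4932, 5034 and 4868 on the silica arrays. All its silica values lay below the control values, with a log2 difference of -0.18 ± 0.10 and an adjusted p of 0.422. The inhibitor Atp5if1, which stops the enzyme from running backwards and consuming ATP, gave 1978, 1807 and 1769.8 on the control arrays and 1965, 1863 and 2108 on the silica arrays and overlapped between the groups (log2 difference 0.09, adjusted p = 0.682).

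The membrane and stalk subunits had a median log2 difference of 0.01. Atp5mpl, a small proteolipid bound to the membrane part, gave 1466, 1313 and 1346 on the control arrays and 1693, 1813 and 1623 on the silica arrays. All silica values of Atp5mpl were above the control values, and its log2 difference of 0.31 ± 0.10 was the highest of complex V, with a 95% interval of 0.06 to 0.56 and an adjusted p of 0.207. Over 19 alternative analyses its log2 difference lay between 0.26 and 0.36. Atp5me, another membrane subunit, had 0.16 by its brighter probe set (adjusted p = 0.542) and 0.60 by a further one (adjusted p = 0.179). The stalk subunit Atp5pf had a log2 difference of -0.18 (adjusted p = 0.497).

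Promoter letters were not used in the choice of genes, and 3 motifs were each found in a minority of them. RefSeq promoter windows of the rat assembly GRCr8, from 250 bases before to 50 bases after the gene start, were found for 78 of the 86 genes. The motif of nuclear respiratory factor 1 (NRF1), a regulator of genes for mitochondrial proteins, was searched as GCGCANGCG on both strands. It was in 19 of the 78 windows, or 24.4%, against 6.26% of all 27457 windows of that length and 11.2% of the 11701 windows of genes on the array. The letters CCGGAAG, bound by ETS factors such as GABP, were in 28.2% of the 78 windows against 9.22% of all windows and 15% of those of array genes. The YY1 letters AAGATGGC were in 21.8% against 3.44% and 4.72%. None of the 3 motifs shares its full letters with another, although matches on both strands can overlap where NRF1 letters read the same backwards. A match is a description of letters, not a binding site.

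Sites with NRF1 letters are shown for genes described above, because they cover complexes I, II, III and V and genes with estimates on both sides of 0. Each line is 29 bases in the direction of the gene, with the motif in capitals. At the sites shown for Uqcrc1 and Ndufb4 the motif reads on the opposite strand, so its reverse complement is printed. Not every site is shown: Uqcrc1 and Ndufb4 each have a further one on the strand of the gene, and so does Sdha.
Sdha, chr1:30764454-30764482, + strand: cgtttgcagaGCGCAGGCGcaccaccact
Sdha, chr1:30764497-30764525, + strand: ggagcgtgttGCGCAGGCGcagagccttc
Uqcrc1, chr8:118468150-118468178, + strand: ttccttacagCGCCTGCGCctcatactcc
Ndufb4, chr11:76569057-76569085, + strand: agaaacagtaCGCGTGCGCagactacgca
Atp5mpl, chr6:136845682-136845710, - strand: gcgctgtggtGCGCAGGCGcgaaagaccc
None of these genes was called. Genes with the NRF1 letters had a median log2 difference of -0.05 and those without had -0.0024, with a range among the former from -0.23 for Ndufb4 to 0.31 for Atp5mpl. Medians with and without the ETS letters were 0.05 and -0.05, and with and without the YY1 letters 0.06 and -0.01.

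Other genes of mitochondrial energy metabolism, taken from lists of known genes, had no called gene either, against the same background of 1.67%. Further respiratory chain subunits and assembly factors were measured for 39 of 42 listed genes, of which 3 were higher and 0 lower at an unadjusted limma p under 0.05. Over all genes, 12.6% were higher and 7.24% lower at that level. Ttc19, an assembly factor of complex III, had a log2 difference of 0.41, adjusted p = 0.207, and Higd1a, a hypoxia-inducible factor of complex IV, had 0.26, adjusted p = 0.228. Of 20 citric acid cycle and pyruvate entry genes, 1 was higher and 2 were lower at that level, against the same 12.6% and 7.24%. Pdhx, the binding protein of pyruvate dehydrogenase, had 0.51, adjusted p = 0.132, and the kinases Pdk2 and Pdk4, which switch that enzyme off, had -0.26, adjusted p = 0.249 and -0.35, adjusted p = 0.272.

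Regulators that control how much of this machinery is made were all measured, 17 of 17. At the unadjusted level 3 were higher and 0 lower, against 12.6% and 7.24% of all genes. All silica values were above all control values for 6 regulators and below them for 1, Tfb1m, against 18.7% and 12.7% of all genes. Pprc1, a coactivator of NRF1, gave 373, 484 and 365 on the control arrays and 584, 626 and 523 on the silica arrays (log2 difference 0.50, adjusted p = 0.178), with the groups apart. Polrmt, the mitochondrial RNA polymerase, had 0.32, adjusted p = 0.220, and the nuclear receptor Esrra had 0.36, adjusted p = 0.25. Among 45 mitochondrial ribosomal protein genes 3 were higher and 0 lower, with a median of 0.04 and the same shares over all genes.

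Fatty acid oxidation, which supplies NADH to complex I, had estimates on both sides of 0 over 16 genes, with a median of -0.10 and 0 higher and 3 lower at the unadjusted level, against 12.6% and 7.24% of all genes. Eci1, an isomerase needed for unsaturated fatty acids, gave 1403, 1483 and 1738 on the control arrays and 1092, 1044 and 1183 on the silica arrays. All its silica values were below the control values (log2 difference -0.47, adjusted p = 0.146). Hadh and Acaa2, enzymes of the last steps of each cycle, had -0.26, adjusted p = 0.25, and -0.31, adjusted p = 0.263. Among 11 carriers and uncoupling proteins 1 was higher and 1 lower, against the same shares, with 0.34, adjusted p = 0.282 for Ucp2 and -0.40, adjusted p = 0.191 for Ucp3.

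Marker genes of some immune cells were called higher in the silica group while these genes did not pass the test. The lung label was borne out by surfactant protein C (Sftpc), with 23511, 22598 and 23480.3 on the control arrays and 19855, 24855 and 19546 on the silica arrays. Summed macrophage markers were 10654 to 11453 in the control group and 14417 to 15740.4 in the silica group, with 2 of 5 measured markers called higher. Summed T cell markers were 1472 to 1846 and 3107 to 4257, with 4 of 5 called higher. Over all genes 1.55% were called higher. Summed neutrophil markers were 5223.5 to 6828.5 and 9236.3 to 15855, with 0 of 3 measured markers called. Type 1 alveolar cell markers summed to 68082 to 71847 and 57219 to 61560, with 0 of 5 called. All 5 were lower on every silica array, against 12.7% of all genes. At an unadjusted limma p under 0.05, 3 of the 5 were lower and 0 higher, against 7.24% and 12.6% of all genes. The log2 ratio of 3-prime to 5-prime signal of beta-actin and GAPDH, a sign of RNA integrity, was 1.23, 1.20 and 0.996 on the control arrays and 1.67, 1.50 and 1.15 on the silica arrays. Silica replicates 1 and 2 lay above every control array, and the groups overlapped only through silica replicate 3. With that ratio as a covariate, 0 of the 86 genes had an unadjusted p under 0.05, and that fit called 0 of the 14217 genes. The part of cell numbers in these values was not tested.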

How the data were processed

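Lung RNA of 6 rats was measured on 1-colour short-oligonucleotide arrays. Deposited values were intensities on a linear scale. Not given in the sources used here is the summarising software. Each array's mean after trimming both ends was 500.141 to 500.149, so the authors' intensity values had been scaled array by array. The table held 31099 probe sets, of which 57 controls were left out. Names came from the platform annotation, updated through gene identifiers to RefSeq (GRCr8). They gave 20826 probe sets with 1 gene (20758 matched by identifier), 436 with several, which were not named, and 9780 unlisted.

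Samples were grouped by title. Silica was compared with control on log2(signal + 16) by limma 3.58.1 (lmFit and eBayes, group term, 4 residual and 2.18 prior degrees of freedom) in R 4.3.3, with Benjamini-Hochberg adjustment over 31042 probe sets at 0.05. With 3 animals per group an exact permutation p cannot be lower than 0.1. The script was tested on simulated data. Array medians lay between 7.38 and 7.42, array correlations between 0.970 and 0.982, and the number of arrays limits precision. Genes named were the core subunits, isoform pairs, Atp5if1, any past the threshold, and the 2 highest and 2 lowest log2 differences of each complex with a mean signal over 100 in at least 1 group. Up to 3 genes with the smallest p were named from each other list. Further supernumerary subunits of complex I whose groups did not overlap were named after their values were seen. Genes and lists were chosen with earlier results of these data known. Alternatives covered normalization, dim probe sets, spread, pseudocount, weights, RNA quality, probe set choice, symbols, threshold, the replicate block and each array left out. Adding probe sets that list several genes, and complex IV without tissue isoforms, were chosen after seeing the data.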

Additional observations from a re-analysis of the deposited data

How the results depend on the processing

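The count of oxidative phosphorylation genes called by limma was 0 in the main analysis and in each alternative run. Several of these runs called almost no gene on the whole array, so a count of 0 there cannot show stability. Dropping any single array left between 0 and 7 of the 14217 genes called, and a pseudocount of 1 left 29. At an unadjusted p under 0.05 the count ranged from 0 with the RNA quality covariate to 11 with an intensity trend. Same-numbered animals had deviation correlations of 0.0924, 0.0350 and 0.0875. Animals with different numbers were not compared, so these values cannot settle whether replicate numbers pair the animals. The fit with the replicate block called 0 of the 86 genes and 1 of 14217 genes. With each array left out in turn, the median log2 difference of complex I ranged from -0.073 to 0.0013 and that of complex III from -0.064 to 0.048. The -0.073 was without silica replicate 2 and the -0.064 without silica replicate 1, and the cause was not tested. Leaving out single arrays also took the median of complex V from -0.0021 (without control replicate 2) to 0.062 (without silica replicate 3), that of complex IV from -0.079 (without control replicate 2) to -0.011 (without silica replicate 3), and that of complex II from -0.11 to -0.062. With the RNA quality covariate the medians were -0.03 for complex II and -0.0048 for complex V. With the second brightest probe sets they were -0.14 and 0.05. These shifts of complexes II, IV and V were smaller than the spread (SD) between arrays of a group.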

Other observations

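Further probe sets and probe sets that list several genes gave values outside the comparisons above. The 10 further probe sets of the 86 genes had a median log2 difference of 0.07 and a range from -0.44 to 0.60, and limma called 0 of them, with 2 higher and 1 lower at an unadjusted p under 0.05, against 12.6% and 7.24% of all genes by their brightest probe set. The 9 probe sets that list a gene of the rule together with other genes had a median of -0.04 and a range from -0.37 to 0.20, with 0 called by limma and, against the same shares, 0 higher and 1 lower at that level. Cytochrome c is listed by 2 of these, and their log2 differences were 0.18 and -0.09.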
